A study of Homo sapiens with 12 samples.

Results

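The aminoacyl-tRNA synthetases were described as the 37 genes, of 43735 in the count table, whose symbol carried the amino acid letter and ARS, with or without the suffix 1 or 2, together with EPRS, FARSA and FARSB. They fell into 20 enzymes of the cytosol and 17 enzymes with the suffix 2, which act in mitochondria. The genes were measured by RNA-seq in 12 cultures of human multiple myeloma cells, 3 in each of 4 groups. These were glucocorticoid-sensitive MM1S and glucocorticoid-resistant MM1R cells, each untreated or exposed to 1 µM withaferin A (WA), a steroidal lactone of the plant Withania somnifera, for 3 h. Both are sublines of the established myeloma line MM1, and all cultures grew in RPMI-1640 medium with 10% FBS. Antibiotics, non-essential amino acids and sodium pyruvate were also added to the medium. Each group held cultures of 3 passage numbers, 16, 22 and 23 for MM1S and 4, 6 and 7 for MM1R, and these numbers were shared between the untreated and the WA-treated cultures of a line. Passage number and line cannot be told apart, because the lines shared no passage number, and each line stands for a single cell population.

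Aminoacyl-tRNA synthetases join an amino acid to the tRNA that reads its codons, the step that fixes the genetic code. The cytosolic enzymes supply the ribosomes that make the bulk of cellular protein, which in a plasma cell includes secreted antibody, and several of them are held in a multi-synthetase complex. The mitochondrial enzymes are encoded in the nucleus and imported, and supply the ribosomes that translate the few mitochondrial mRNAs for the respiratory chain. GARS and KARS serve both compartments. Cytosolic synthetase genes are also known targets of ATF4, the transcription factor of the integrated stress response.

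The depth of the 12 cultures was 17625110 to 19368343 gene-assigned reads, and levels are given below as CPM, the reads of a gene relative to library size after scaling by edgeR's TMM method. All 8 plasma cell markers had reads, with a summed level of 4684 to 6294 CPM per culture, whereas the 4 B cell markers had no more than 3 reads each in any culture. The summed markers of T cells (at most 11.9 CPM), myeloid cells (0.669 CPM), stromal cells (20.4 CPM) and erythroid cells (9.66 CPM) were low. The summed plasma cell markers were lower with WA, at 4835 to 5475 CPM against 5820 to 6294 CPM in MM1R and 4684 to 4970.5 CPM against 4990.4 to 5518 CPM in MM1S. Among them IRF4 fell (log2FC -0.96 and -0.73, edgeR adjusted p = 0.0032 and 0.019) and SLAMF7 rose (0.40 and 0.53, edgeR adjusted p = 0.026 and 0.0069). The summed stromal markers were at 6.86 to 20.4 CPM against 3.84 to 4.69 CPM with and without WA in MM1R and 3.74 to 8.35 CPM against 2.24 to 4.04 CPM in MM1S, where the ranges overlapped. COL1A1 rose (2.46 and 2.78, edgeR adjusted p = 0.0039 and 0.0045) and COL1A2 and DCN had at most 3 reads. The part of these changes in the results below was not tested. All 20 cytosolic and 15 of the 17 mitochondrial synthetases had enough reads to be tested, among 14085 genes in all. VARS2 and SARS2, the mitochondrial enzymes for valine and serine, were listed at 0 reads in every culture, and VARS, the cytosolic valine enzyme, had 34 to 88 reads. The table holds further entries of these symbols with a number after them, 6 for VARS, 5 for VARS2 and 1 for SARS2, none with more than 1 read in a culture. Of 2363 symbols with such numbered entries, 80.4% had at most 3 reads in every culture, against 51.7% of the 36657 others. How reads shared by several entries were counted is not given in the sources used here, so that the low values of VARS, VARS2 and SARS2 cannot be read as their expression.

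Cytosolic synthetases were more abundant than mitochondrial ones in untreated cells. Levels between genes were compared as TPM, which relate the reads of a gene to the length of its canonical transcript. The median over 19 cytosolic enzymes, VARS left out, was 160.3 TPM in MM1S and 140.1 TPM in MM1R, against 35.4 and 33.7 TPM over 15 mitochondrial enzymes. GARS, which charges glycine, stood highest with 319.9 ± 92.1 TPM in MM1S and 271.3 ± 29.2 TPM in MM1R (SD, n = 3), followed by YARS, the tyrosine enzyme, with 302 ± 70.9 and 233 ± 0.803 TPM. These neighbours differed by less than their spread in MM1S. CARS, the cysteine enzyme, was the lowest cytosolic member besides VARS with 15.3 ± 4.05 TPM in MM1S. It also has 1 numbered entry, with at most 10 reads in a culture. The limit on counting named above thus applies to the level of CARS and to its pair with CARS2 as well. IARS2, which charges isoleucine, led the mitochondrial enzymes with 122 ± 9.16 TPM in MM1S, and WARS2, for tryptophan, was lowest with 8.94 ± 0.361 TPM. Of 16 pairs of cytosolic and mitochondrial enzymes for the same amino acid, 14 had the cytosolic enzyme higher in both lines, and in the pair CARS with CARS2 the mitochondrial enzyme was higher. The ratio of the cytosolic to the mitochondrial median was 4.47 ± 0.472 in MM1S and 4.27 ± 0.36 in MM1R (SD, n = 3), and 3.58 and 3.57 with the coding length in place of the transcript length. The order at the ends also depended on the length. With the coding length YARS was highest, at 200 TPM in MM1S and 158 TPM in MM1R, above GARS at 151 and 131 TPM. PARS2, the proline enzyme, was then lowest of the 15 mitochondrial enzymes at 8.41 and 8.81 TPM, below WARS2 at 9.93 and 10.5 TPM.

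**Figure D1:**
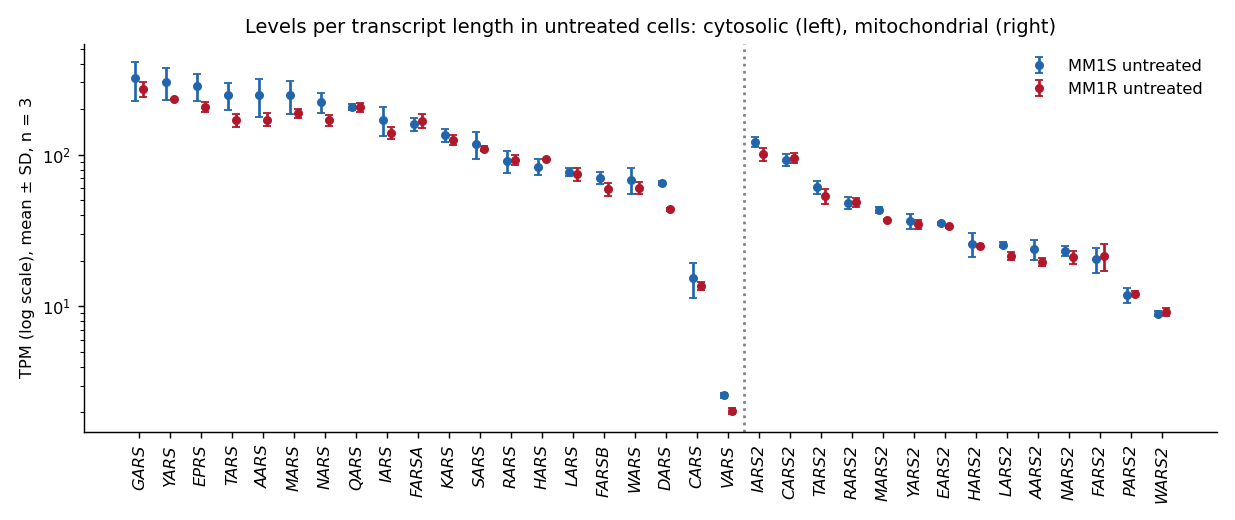
Level of the synthetases in untreated cells in TPM on a log scale (points, mean over 3 cultures; bars, SD), cytosolic enzymes left and mitochondrial enzymes right of the dotted line, MM1S in blue and MM1R in red. By the transcript length used here, GARS is highest and VARS lowest among the cytosolic enzymes, and IARS2 is highest and WARS2 lowest among the mitochondrial ones. The low value of VARS is subject to the counting of numbered entries.

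In response to WA, mRNAs of a few mitochondrial synthetases fell, led by MARS2, YARS2 and TARS2, while no synthetase of either compartment was called higher in the fit without passage pairing. In MM1R cells, 5 of 35 tested members passed an adjusted p of 0.05, all lower (edgeR's quasi-likelihood F-test, p adjusted by the Benjamini-Hochberg method over all tested genes, groups of 3 cultures), among a background of 14% of all tested genes called, 7.55% higher and 6.46% lower. They were 3 of 15 mitochondrial enzymes (MARS2, YARS2 and TARS2) and 2 of 20 cytosolic ones (LARS and QARS). In MM1S cells, 4 members fell, the mitochondrial MARS2, YARS2 and PARS2 and the cytosolic QARS, among a background of 10.5% called, 6.25% higher and 4.23% lower. For the 0 members called higher, 2 in MM1R and 1 in MM1S had a higher estimate at an unadjusted p under 0.05, and DESeq2 called 1 in each line, GARS in MM1R and EARS2 in MM1S. In either direction, 12 of 35 members in MM1R and 8 in MM1S had an unadjusted p under 0.05. Of all 14085 tested genes, 3997 and 3503 did. The share of all genes called by DESeq2 is not given here, so that its counts, here and below, stand without a background. In bulk RNA, fewer cells that hold an mRNA and less of it per cell cannot be told apart.

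The untreated and WA cultures of the same passage deviated together from their group means, so that a fit with passage as replicate block was also made. In this paired fit, 3 cytosolic members were higher in MM1R (GARS, CARS and AARS) and 4 lower (QARS, LARS, KARS and FARSA), and 6 mitochondrial members were lower, among them MARS2, YARS2, TARS2, NARS2 and WARS2. The background of the paired fit was 29.1% called in MM1R, 14.7% higher and 14.4% lower. In MM1S it called GARS higher and the same 4 cytosolic enzymes lower, and among the mitochondrial ones EARS2 higher and 5 lower (MARS2, YARS2, PARS2, TARS2 and NARS2), beside a background of 24.1%, 12.5% higher and 11.7% lower. Read against these shares, 6 of 15 mitochondrial enzymes lower in MM1R and 5 of 15 lower in MM1S lay above the background, whereas 3 of 20 cytosolic enzymes higher in MM1R lay near it. The 4 of 20 cytosolic enzymes lower in each line also lay above the shares called lower, 14.4% and 11.7%, by less than the mitochondrial ones.

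Most mitochondrial estimates lay below 0, also among enzymes that did not pass the test. The median log2 fold change (log2FC) of the group was -0.29 in MM1R and -0.22 in MM1S, and 13 of 15 estimates were below 0 in each line, with EARS2 and RARS2, the enzymes for glutamate and arginine, above 0 in both. The cytosolic median was -0.03 in MM1R and 0.03 in MM1S, and that over all tested genes was 0.01 in each line. All 3 WA cultures lay below all 3 untreated cultures for 6 mitochondrial enzymes in MM1R and 7 in MM1S, that is 40% and 46.7% of those tested, against 16% and 13.9% of all tested genes. The reverse, all WA cultures above, held for 0 and 1 mitochondrial enzymes, where the background was 17.3% and 16.4%. Of the cytosolic enzymes, 3 lay wholly above and 3 wholly below in MM1R, and 0 above and 3 below in MM1S.

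**Figure D2:**
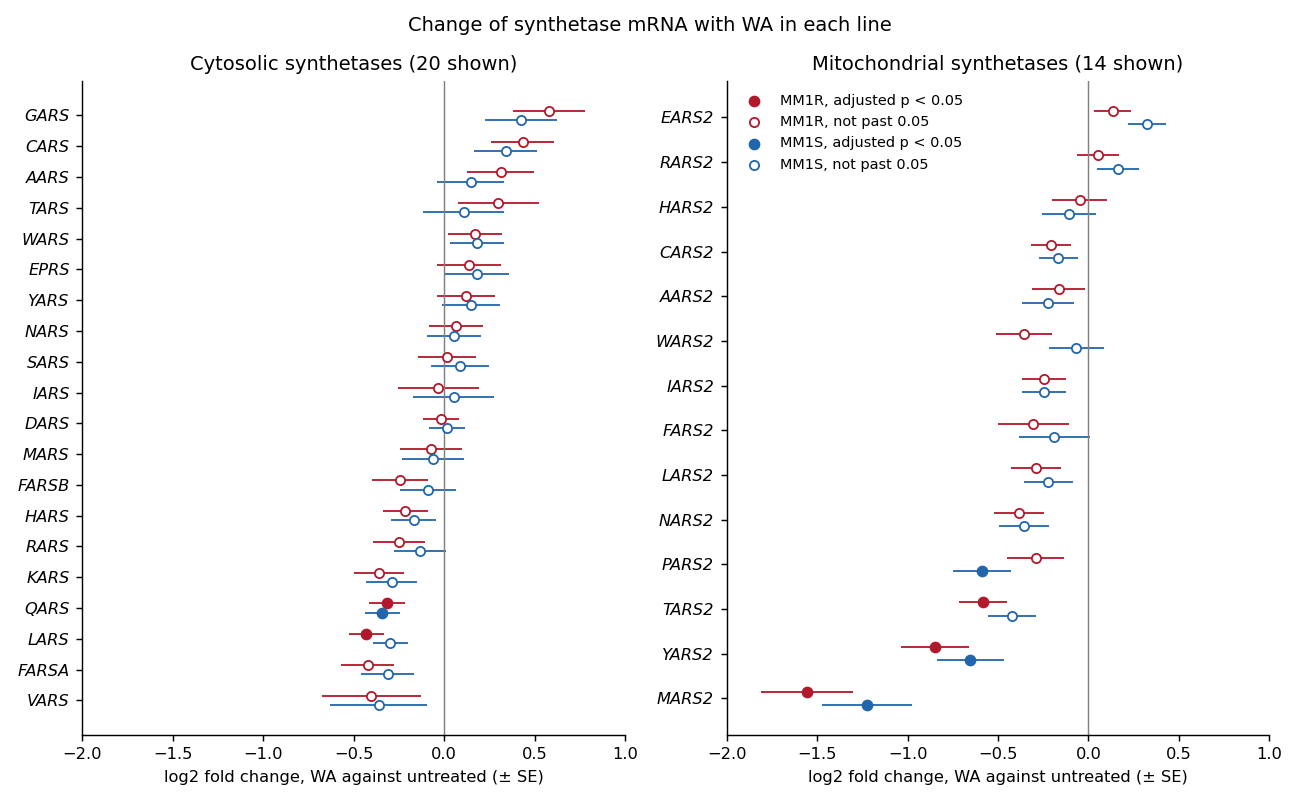
Log2 fold change of the synthetases with WA against untreated cells (points; bars, SE), cytosolic enzymes in the left panel and mitochondrial ones in the right, MM1R in red and MM1S in blue, with filled points for an adjusted p under 0.05. MARS2 lies lowest in both lines at -1.55 and -1.22, and only EARS2 and RARS2 lie to the right of 0 in both lines among the mitochondrial enzymes.

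MARS2, the methionyl-tRNA synthetase of mitochondria, changed more than any other member. Its gene has 1 exon and lies at chr2:198570093-198573119 on the plus strand (GRCh37). In MM1R cells of passages 4, 6 and 7 it had 47.3, 50.5 and 54.7 CPM untreated and 21.5, 20.2 and 10.1 CPM with WA, and in MM1S cells of passages 16, 22 and 23 it had 55.2, 51.0 and 54.5 CPM untreated and 19.1, 32.1 and 17.6 CPM with WA. The untreated cultures were close to each other, every WA culture lay far below them, and the lowest value belonged to MM1R of passage 7. The group mean with WA was 34% of untreated in MM1R and 42.8% in MM1S, which gave a log2FC of -1.55 ± 0.25 SE (edgeR adjusted p = 0.0014) and -1.22 ± 0.25 SE (edgeR adjusted p = 0.0069). It passed in both lines with each of the 12 libraries left out, at an adjusted p of at most 0.0073 in MM1R and 0.0359 in MM1S. Its cytosolic counterpart MARS had log2 estimates of -0.07 and -0.06, neither past the threshold.

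YARS2, which charges tyrosine in mitochondria, lies at chr12:32880424-32908831 on the minus strand with 5 exons. Its level was 28.2, 33.7 and 38.6 CPM in untreated MM1R of passages 4, 6 and 7 and 19.5, 22.9 and 13.3 CPM with WA. In MM1S of passages 16, 22 and 23 it was 28.0, 32.8 and 34.2 CPM untreated and 17.6, 23.5 and 19.3 CPM with WA. The groups did not overlap in either line, and MM1R of passage 7, which was highest untreated, was lowest with WA. The mean fell to 55.5% of untreated in MM1R (log2FC -0.85 ± 0.19 SE, edgeR adjusted p = 0.0090) and to 63.6% in MM1S (-0.65 ± 0.19 SE, edgeR adjusted p = 0.039). Every leave-one-out fit kept the call in MM1R, whereas in MM1S it was lost without untreated MM1S of passage 22 or 23, MM1S with WA of passage 16 or 23, untreated MM1R of passage 6 or MM1R with WA of passage 4, at adjusted p-values of 0.053 to 0.13.

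TARS2, the mitochondrial threonine enzyme, had 54.4, 64.8 and 80.5 CPM in untreated MM1R of passages 4, 6 and 7 and 45.7, 44.5 and 43.1 CPM with WA. The WA cultures lay close together below a wide untreated range. In MM1S of passages 16, 22 and 23 it had 61.2, 71.9 and 71.9 CPM untreated and 48.9, 54.3 and 49.5 CPM with WA, again without overlap. It fell in MM1R (log2FC -0.58 ± 0.13 SE, edgeR adjusted p = 0.011), a call lost without MM1R with WA of passage 7 (-0.53, adjusted p = 0.053, edgeR). In MM1S the estimate was -0.42 (SE 0.13, adjusted p = 0.056), with an adjusted p of 0.017 in the paired fit. It passed also in DESeq2 and without untreated MM1R of passage 7 or 4 (adjusted p = 0.023 and 0.030).

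PARS2, which charges proline in mitochondria, fell in MM1S, from 10.6 to 12.7 CPM untreated to 6.77 to 8.86 CPM with WA (log2FC -0.59 ± 0.16 SE, edgeR adjusted p = 0.033). In MM1R the ranges of 12.03 to 14.4 CPM untreated and 9.67 to 12.04 CPM with WA just overlapped, with an estimate of -0.29 (adjusted p = 0.25). The call in MM1S was lost without untreated MM1S of any passage, MM1S with WA of passage 16 or 23, or untreated MM1R of passage 6, at adjusted p-values of 0.052 to 0.14. NARS2, the mitochondrial asparagine enzyme, had estimates of -0.39 in MM1R and -0.36 in MM1S, which passed in the paired fit (adjusted p = 0.018 and 0.026) and, in MM1R, also without untreated MM1R of passage 4 (adjusted p = 0.033). EARS2 had 71.0 to 87.6 CPM in untreated and 83.6 to 92.3 CPM in WA-treated MM1R, and 73.9 to 77.0 CPM against 86.7 to 100.1 CPM in MM1S. Its estimate in MM1S was 0.32 (adjusted p = 0.062), with 0.022 in the paired fit and 0.045 and 0.047 without untreated MM1R of passage 7 and 4. Of the other mitochondrial enzymes, AARS2, CARS2, FARS2, HARS2, IARS2, LARS2, RARS2 and WARS2 had estimates between -0.36 and 0.16 in both lines.

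**Figure D3:**
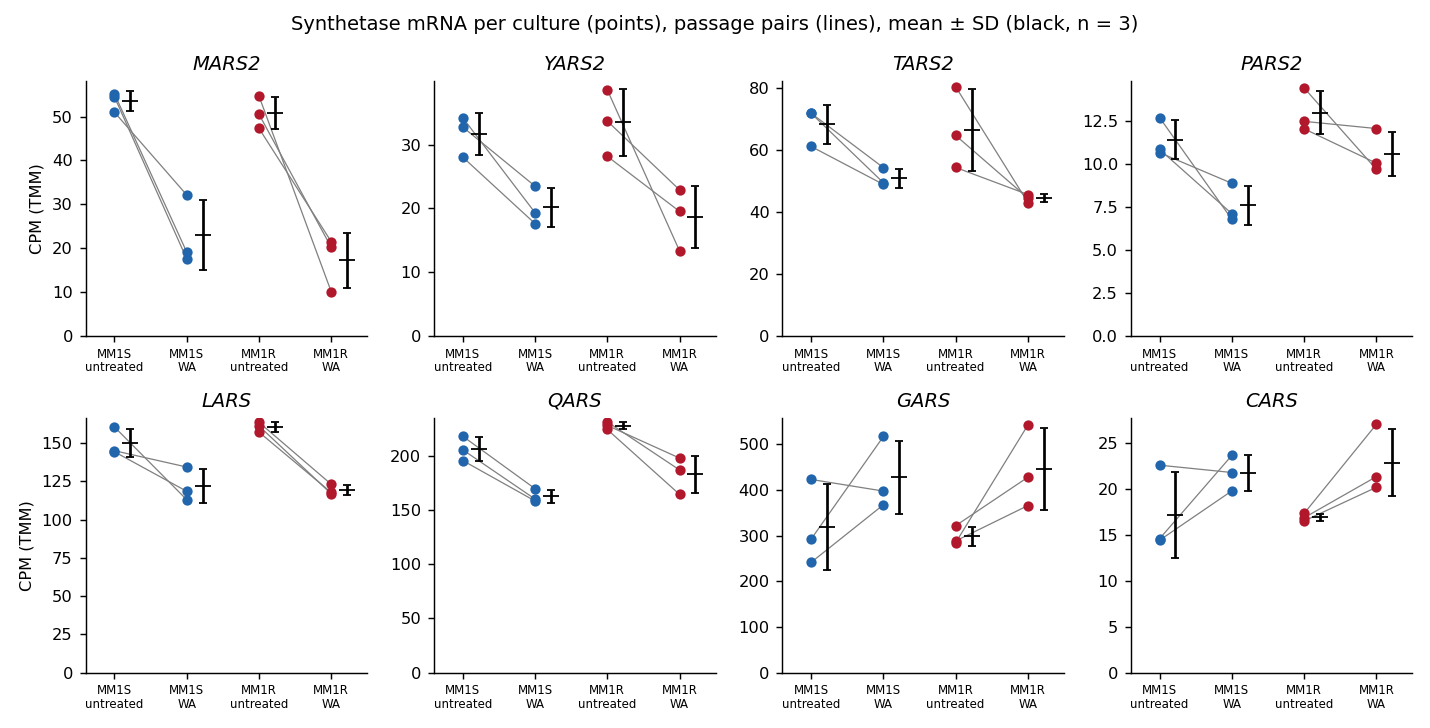
Level of 8 synthetases in each of 12 cultures in CPM (points; grey lines join the untreated and WA cultures of a passage; black, mean ± SD, n = 3), MM1S in blue and MM1R in red. MARS2, YARS2 and TARS2 are lower with WA in all 6 passage pairs, as are PARS2, LARS and QARS, whereas GARS and CARS are higher in 5 of 6.

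Stretches before the start sites of MARS2 and YARS2, the members with the largest changes, are shown because they differ in the letters they hold. They are the 250 bases before the RefSeq start (GRCh38.p14), read along the gene, with capitals in MARS2 for the letters of the respiratory gene factor NRF1 (GCGCA, any base, GCGC), and in YARS2 for TGATGNAA, the core of the C/EBP-ATF response element bound by ATF4.
MARS2, chr2:197705119-197705368, plus strand: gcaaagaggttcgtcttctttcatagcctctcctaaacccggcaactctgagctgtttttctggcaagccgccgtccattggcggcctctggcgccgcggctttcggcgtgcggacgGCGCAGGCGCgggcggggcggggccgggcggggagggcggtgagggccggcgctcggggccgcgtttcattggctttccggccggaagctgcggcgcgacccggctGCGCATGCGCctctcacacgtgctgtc
YARS2, chr12:32755898-32756147, minus strand: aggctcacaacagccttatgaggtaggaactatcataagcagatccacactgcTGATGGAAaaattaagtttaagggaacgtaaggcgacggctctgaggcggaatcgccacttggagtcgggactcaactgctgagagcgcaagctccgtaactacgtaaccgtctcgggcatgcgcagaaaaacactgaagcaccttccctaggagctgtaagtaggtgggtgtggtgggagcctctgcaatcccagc
Both strands were searched in windows from 250 bases before to 50 after each start. MARS2 held the NRF1 letters at -133 and, as a palindrome read on both strands, at -27 from the start, with GCGCAGGCGC at the first and GCGCATGCGC at the other. These letters occurred in 3 of 14 mitochondrial members with a window (21.4%, IARS2, MARS2 and PARS2), in 3 of 16 cytosolic members (18.8%) and in 6.98% of all 27305 genes. In the same windows the letters of a heat shock element (GAA, any 2 bases, TTC, any 2 bases, GAA) occurred in 0 of 30 synthetases and in 0.608% of all genes, and the match of letters is a description and no measured site.

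Among the cytosolic enzymes, LARS and QARS were past the threshold in at least 1 line in the edgeR fit without pairing. LARS, the leucine enzyme and a leucine sensor of the mTORC1 pathway, lies at chr5:145490129-145562259 on the minus strand with 32 exons. It had 161, 164 and 157 CPM in untreated MM1R of passages 4, 6 and 7 and 117, 123 and 118 CPM with WA. In MM1S of passages 16, 22 and 23 it had 161, 145 and 144 CPM untreated and 113, 134 and 119 CPM with WA. The groups did not overlap in either line, and MM1S with WA of passage 22 came nearest to the untreated cultures. LARS fell in MM1R (log2FC -0.43 ± 0.10 SE, edgeR adjusted p = 0.0098) and kept this call with each library left out. In MM1S the estimate was -0.30 (adjusted p = 0.065, edgeR), past the threshold in DESeq2, in the paired fit (adjusted p = 0.024) and without MM1S with WA of passage 22 (adjusted p = 0.036).

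QARS, which charges glutamine, lies at chr3:49133365-49142563 on the minus strand with 24 exons. It had 224, 228 and 231 CPM in untreated MM1R of passages 4, 6 and 7 against 164, 198 and 187 CPM with WA, and 218, 206 and 196 CPM in untreated MM1S of passages 16, 22 and 23 against 169.7, 160.1 and 158 CPM with WA. Every WA culture lay below every untreated culture of its line. The log2 fold change was -0.32 in MM1R (SE 0.10, adjusted p = 0.045) and -0.34 in MM1S (SE 0.10, adjusted p = 0.038, edgeR). In MM1R the call held in only 2 of 12 leave-one-out fits, those without MM1S with WA of passage 16 or MM1R with WA of passage 6, with an adjusted p of up to 0.17 in the others. In MM1S it was lost without any 1 of the 6 MM1S libraries (adjusted p = 0.061 to 0.13) and held without each MM1R library.

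FARSA, the catalytic subunit of the phenylalanine enzyme, had 111, 139 and 165 CPM in untreated MM1R of passages 4, 6 and 7 and 92.2, 104 and 114 CPM with WA. In MM1S of passages 16, 22 and 23 it had 106, 123 and 127 CPM untreated and 83.1, 97.1 and 106 CPM with WA. The ranges overlapped in each line, but within each of the 6 passage pairs WA was lower. The estimates of -0.42 in MM1R (adjusted p = 0.071) and -0.31 in MM1S (adjusted p = 0.20) passed in the paired fit (adjusted p = 0.0028 and 0.014), and in MM1R also without untreated MM1R of passage 4 (adjusted p = 0.020) and in DESeq2. KARS, the lysine enzyme, had -0.36 and -0.29, with adjusted p-values of 0.0065 and 0.021 in the paired fit and 0.032 in MM1R without untreated MM1R of passage 4.

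GARS, at chr7:30620149-30673649 on the plus strand with 17 exons, was the member with the highest estimates. It had 288, 322 and 285 CPM in untreated MM1R of passages 4, 6 and 7 and 366, 428 and 543 CPM with WA, and 242, 423 and 293 CPM in untreated MM1S of passages 16, 22 and 23 against 368, 398 and 517 CPM with WA. The MM1R groups were separate, while in MM1S the untreated culture of passage 22 was above both its own WA culture and that of passage 16. The log2 fold change was 0.58 in MM1R (SE 0.20, adjusted p = 0.068) and 0.42 in MM1S (SE 0.20, adjusted p = 0.20, edgeR), and the paired fit gave adjusted p-values of 0.015 and 0.049. In MM1R it passed without untreated MM1S of passage 16 or 22 (adjusted p = 0.043 and 0.039).

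CARS followed with 16.5, 16.8 and 17.3 CPM in untreated MM1R of passages 4, 6 and 7 and 20.2, 21.3 and 27.0 CPM with WA. In MM1S of passages 16, 22 and 23 it had 14.4, 22.6 and 14.6 CPM untreated and 19.8, 21.8 and 23.6 CPM with WA, where passage 22 alone was lower with WA. Its estimates were 0.43 (adjusted p = 0.12) and 0.34 (adjusted p = 0.25), and the paired fit called it in MM1R alone (adjusted p = 0.038 and 0.078). In that fit the change in MM1R minus that in MM1S was 0.06 (SE 0.20) on the log2 scale and was not called. AARS, the alanine enzyme, had 253 to 449 CPM in untreated MM1S, where passage 22 was again highest, and was called higher in MM1R by the paired fit (adjusted p = 0.046). VARS had 3.44, 3.68 and 4.31 CPM in untreated MM1R of passages 4, 6 and 7 and 2.56, 3.09 and 2.98 CPM with WA. In MM1S of passages 16, 22 and 23 it had 4.20, 4.55 and 4.33 CPM untreated and 1.84, 4.00 and 4.31 CPM with WA. The MM1R groups were separate and the MM1S groups overlapped, on few reads in every culture, and its estimates of -0.40 and -0.36 did not pass (adjusted p = 0.37 and 0.45). The other 12 cytosolic enzymes, DARS, EPRS, FARSB, HARS, IARS, MARS, NARS, RARS, SARS, TARS, WARS and YARS, had estimates between -0.25 and 0.30 in both lines and passed in no fit with or without pairing.

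The 8 cytosolic enzymes of the multi-synthetase complex had a median log2FC of -0.16 in MM1R and -0.10 in MM1S, and 2 and 1 of them were called lower by edgeR without pairing, where 6.46% and 4.23% of all tested genes were. The 12 enzymes outside it had medians of 0.09 and 0.10, and 0 were called in that fit. At an unadjusted p under 0.05 there were 3 in MM1R and 0 in MM1S, beside 3997 and 3503 of all 14085 tested genes. DESeq2 called 2 in MM1R (GARS and FARSA) and 0 in MM1S. The paired fit called 3 lower inside the complex in each line (QARS, LARS and KARS), and outside it 3 higher and 1 lower in MM1R and 1 higher and 1 lower in MM1S, beside the backgrounds of the paired fit given above. Of the 3 scaffold genes of the complex, AIMP2 fell in MM1R (log2FC -0.43 ± 0.13 SE, edgeR adjusted p = 0.048), a call that held in 3 of 12 leave-one-out fits, those without untreated MM1R of passage 4 or MM1S with WA of passage 16 or 22 (adjusted p up to 0.198 in the others), and in MM1S its estimate was -0.28 (adjusted p = 0.21). Without untreated MM1R of passage 7 the estimate in MM1R was -0.27. EEF1E1, another scaffold gene, had estimates of -0.53 and -0.50 (adjusted p = 0.16 and 0.22), which passed in the paired fit in both lines (adjusted p = 0.017 and 0.021).

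Letters of the C/EBP-ATF response element lay near the starts of 7 of 16 cytosolic members with a RefSeq window, AARS, CARS, GARS, IARS, MARS, NARS and TARS (43.8%), of 1 of 14 mitochondrial members (7.14%, YARS2) and of 4.46% of all genes. Their matches are shown because cytosolic synthetases are known targets of ATF4, with TGATGNAA or its reverse complement in capitals and 11 bases on each side, read along the gene on GRCh38.p14.
AARS, chr16:70289675-70289704, minus strand: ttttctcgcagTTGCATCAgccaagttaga
CARS, chr11:3057407-3057436, minus strand: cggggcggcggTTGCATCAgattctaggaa
GARS, chr7:30594834-30594863, plus strand: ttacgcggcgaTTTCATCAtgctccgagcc
IARS, chr9:92293692-92293721, minus strand: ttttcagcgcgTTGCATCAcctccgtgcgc
MARS, chr12:57488053-57488082, plus strand: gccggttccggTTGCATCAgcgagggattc
NARS, chr18:57621804-57621833, minus strand: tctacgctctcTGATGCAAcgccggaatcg
TARS, chr5:33440956-33440985, plus strand: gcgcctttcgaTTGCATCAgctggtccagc
YARS2, chr12:32756076-32756105, minus strand: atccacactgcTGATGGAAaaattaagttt
AARS, CARS, IARS, MARS and TARS held the same 8 letters TTGCATCA, NARS held their reverse complement TGATGCAA, and GARS held TTTCATCA. The median log2FC with WA was 0.30 in MM1R and 0.11 in MM1S over the 7 members with the letters, against -0.25 and -0.13 over the 9 without them. The ranges overlapped, from -0.07 to 0.58 and from -0.42 to 0.17 in MM1R. YARS2, which held the letters TGATGGAA, fell in both lines. This is a description of 16 genes in the same libraries and was not tested.

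**Figure D4:**
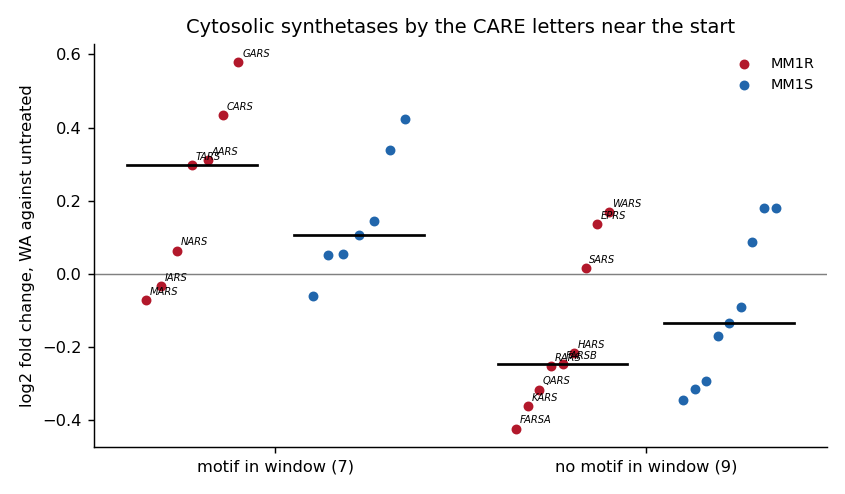
Log2 fold change with WA of the 16 cytosolic synthetases with a RefSeq window, split by whether the C/EBP-ATF letters were found in it, MM1R in red and MM1S in blue, with a black line at each median. GARS and CARS are the highest among the 7 with the letters, and FARSA is the lowest in MM1R among the 9 without.

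HARS and HARS2, the cytosolic and mitochondrial histidine enzymes, start 85 bases apart on opposite strands of chromosome 5, and the stretch between their RefSeq starts is shown because they share it. Capitals mark CCGGAAGT, letters bound by ETS factors, or its reverse complement.
HARS and HARS2, chr5:140691371-140691454, plus strand: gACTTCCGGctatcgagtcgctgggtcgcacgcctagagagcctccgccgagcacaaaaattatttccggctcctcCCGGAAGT
Each end of the stretch held 1 match, and the letters occurred in 5 of 16 cytosolic members (31.2%), 3 of 14 mitochondrial members (21.4%) and 4.95% of all genes. With WA, HARS had log2 estimates of -0.22 in MM1R and -0.17 in MM1S and HARS2 of -0.05 and -0.11, none past the threshold. Without the strand of the counting, reads where their transcripts overlap cannot be told apart.

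Summed over the enzymes, the mitochondrial share of reads was lower with WA in all 6 passage pairs. It was 0.0785 ± 0.00519% of reads in untreated MM1R and 0.0627 ± 0.00338% with WA, and 0.0832 ± 0.00467% and 0.0686 ± 0.00561% in MM1S (SD, n = 3). In MM1R, each WA culture lay below each untreated culture, and the same held in MM1S. The cytosolic share was 0.344 ± 0.00807% untreated and 0.348 ± 0.0270% with WA in MM1R, and 0.398 ± 0.0613% and 0.398 ± 0.0598% in MM1S, lower with WA in 4 pairs and higher in 2. The ratio of cytosolic to mitochondrial reads was 4.39 ± 0.283 and 5.57 ± 0.742 in MM1R and 4.77 ± 0.649 and 5.80 ± 0.781 in MM1S, and it was higher with WA in each pair, from 5.51 to 5.56 in passage 22 of MM1S and from 4.07 to 6.41 in passage 7 of MM1R. The log2 change of the mean ratio was 0.34 in MM1R and 0.28 in MM1S, and 0.18 without passage 7 of MM1R and 0.13 without passage 23 of MM1S. With the median member of each compartment in place of the sum, the gap in log2 CPM changed by 0.0565 in MM1R and by -0.0617 in MM1S. The direction in MM1S thus differed between the sums and the median member. The median log2FC in MM1S, 0.03 over cytosolic and -0.22 over mitochondrial enzymes, lay in the direction of the sums.

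**Figure D5:**
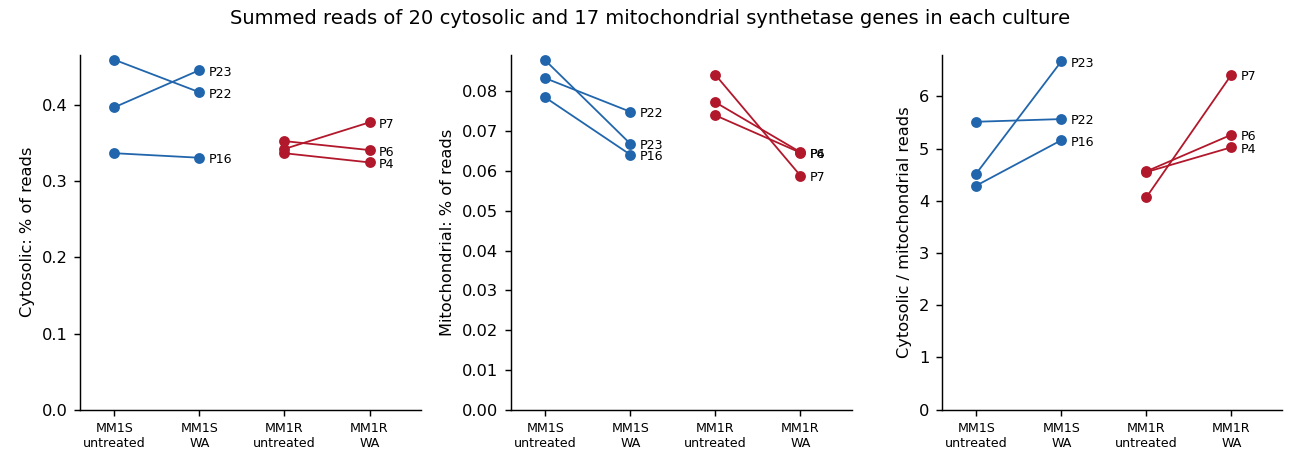
Summed reads of the 20 cytosolic (left) and the 17 mitochondrial (middle) synthetase genes as percent of all counted reads, and the ratio of the sums (right), in each culture (points), with lines between the untreated and WA cultures of a passage, MM1S in blue and MM1R in red. The mitochondrial share is lower and the ratio higher with WA in all 6 pairs, while the cytosolic share has no common direction.

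Compared by amino acid, the cytosolic estimate was above the mitochondrial one in 12 of 16 pairs in MM1R and 11 of 16 in MM1S, with a median gap of 0.40 and 0.28 on the log2 scale. EPRS and FARS2 each enter more than 1 pair, so that the pairs are not independent. The gap was widest for methionine, 1.48 in MM1R and 1.16 in MM1S, followed by tyrosine with 0.97 and 0.80. The mitochondrial estimate was the higher for histidine, leucine and arginine and for FARSA with FARS2 in both lines, and for EPRS with EARS2 in MM1S.

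The lines were also compared with each other, untreated and under WA. None of the 35 tested members reached the limits of the study, an adjusted p of 0.01 with at least 1 in absolute log2FC, between untreated MM1R and MM1S, where 2.97% of all tested genes did, 1.48% higher and 1.49% lower in MM1R, nor under WA, where 3.04% did, 1.63% higher and 1.41% lower. At an unadjusted p under 0.05 in edgeR, 1 member was higher and 1 lower in MM1R, untreated as well as under WA. Of all 14085 tested genes, 3649 untreated and 3944 under WA had such a p in either direction. DESeq2 called 0 members by the limits of the study. At an adjusted p of 0.05 with no limit on the fold change, DARS, the aspartate enzyme of the complex, was lower in MM1R, the single member called, beside a background of 11.9% untreated (6.44% higher, 5.5% lower) and 12% under WA (6.34% higher, 5.66% lower). It had 57.3, 62.0 and 64.5 CPM in untreated MM1R of passages 4, 6 and 7 and 83.9, 80.0 and 84.2 CPM in untreated MM1S of passages 16, 22 and 23. The ranges were far apart, and they were so with WA, at 57.3 to 63.6 CPM in MM1R and 76.4 to 89.7 CPM in MM1S. The log2 difference was -0.43 ± 0.10 SE untreated (edgeR adjusted p = 0.012) and -0.47 ± 0.10 SE under WA (edgeR adjusted p = 0.0074), and the former was lost without untreated MM1S of passage 23 (adjusted p = 0.0548). DESeq2 gave adjusted p-values of 0.000362 and 0.000135.

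No difference in the effect of WA between the lines was called. The interaction was called for 0 of 35 members and 0% of all tested genes, and DESeq2 called 0 members. An unadjusted p under 0.05 was reached by 0 members and by 97 of all 14085 tested genes. For MARS2 the change in MM1R minus that in MM1S was -0.33 (SE 0.35) on the log2 scale, for YARS2 -0.19 (SE 0.26) and for GARS 0.16 (SE 0.28).

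Among genes that work beside the synthetases, a few were called in either direction. Of 10 tested genes of other steps of tRNA charging, QRSL1 and GATC, subunits of the amidotransferase that makes glutaminyl-tRNA in mitochondria, fell in MM1R (log2FC -0.49, edgeR adjusted p = 0.046, and -0.32, edgeR adjusted p = 0.049), where 6.46% of all tested genes were called lower. GATB, another subunit of that enzyme, did not fall, with a mean with WA at 105% of untreated in MM1R and 111% in MM1S. The calls of QRSL1 and GATC held in 3 and 2 of 12 leave-one-out fits, both without untreated MM1R of passage 4 or MM1S with WA of passage 16 and that of QRSL1 also without MM1R with WA of passage 7, with an adjusted p of up to 0.174 and 0.187 in the others, and in MM1S their estimates were -0.23 and -0.20. In the other direction, the paired fit called TARSL2, a threonyl-tRNA synthetase-like gene, higher in both lines (adjusted p = 0.035 and 0.021) and SEPSECS, of selenocysteinyl-tRNA synthesis, higher in MM1R (adjusted p = 0.040). These 2 of 10 in MM1R and 1 of 10 in MM1S stood beside 14.7% and 12.5% of all tested genes called higher in that fit. Of 8 mitochondrial translation factors, GFM2, which recycles mitochondrial ribosomes, rose in both lines (0.79, edgeR adjusted p = 0.0041, and 0.95, edgeR adjusted p = 0.0015), where 7.55% and 6.25% of all tested genes were called higher. TSFM, an exchange factor of mitochondrial elongation, had estimates of -0.29 and -0.28 and was called lower in both lines by the paired fit alone (adjusted p = 0.032 and 0.033), beside 14.4% and 11.7% of all tested genes. Of 4 tested cytosolic elongation factors, 0 passed in edgeR without pairing and 0 in DESeq2. At an unadjusted p under 0.05 there was 1 in each line, beside 3997 in MM1R and 3503 in MM1S of all 14085 tested genes. The paired fit called EEF1D higher in MM1S (log2FC 0.97, adjusted p = 0.025), beside 12.5% of all tested genes called higher. EEF1D had only 15 to 26 reads in untreated MM1S cultures and 28 to 38 with WA, so that this call rests on few reads.

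Of 12 tested genes of eIF2, its kinases and its exchange factor, whose pathway lowers translation and raises ATF4, 1 rose and 3 fell in MM1R and 1 rose and 2 fell in MM1S, where 7.55% and 6.25% of all tested genes rose and 6.46% and 4.23% fell. The paired fit called 2 higher and 5 lower in MM1R and 2 higher and 4 lower in MM1S, beside the backgrounds of the paired fit given above. It added EIF2AK3, the kinase PERK, higher (adjusted p = 0.0078 and 0.023) and EIF2B2 lower (adjusted p = 0.0088 and 0.024) in both lines and EIF2B1 lower in MM1R (adjusted p = 0.044). DESeq2 also called EIF2AK3 and EIF2B2 in MM1R and EIF2S1 in MM1S. EIF2AK2, the kinase PKR, rose in MM1R and MM1S (log2FC 0.59, edgeR adjusted p = 0.0028, and 0.66, edgeR adjusted p = 0.0015). EIF2B4 and EIF2B5, subunits of the exchange factor of eIF2, fell in both lines (-0.57 and -0.46 in MM1R, -0.45 and -0.41 in MM1S, with adjusted p-values of 0.0028 to 0.013). EIF2S1, the alpha subunit that is phosphorylated, fell in MM1R (-0.57, adjusted p = 0.028) but not without untreated MM1R of passage 6 or 7 or any MM1R library with WA (adjusted p = 0.0715 to 0.118), and in MM1S it passed without untreated MM1R of passage 7 or MM1S with WA of passage 22 (adjusted p = 0.049 and 0.012), against 0.063 with all libraries and 0.010 in the paired fit.

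ATF4 itself had log2 estimates of 0.66 in MM1R (edgeR adjusted p = 0.054) and 0.33 in MM1S (edgeR adjusted p = 0.37), with 0.014 and 0.14 in the paired fit. In MM1R it was also called by DESeq2 and in 3 of 12 leave-one-out fits. Of 21 tested genes from a list of ATF4 and its known targets outside the family, 9 rose in MM1R and 4 in MM1S in edgeR without pairing, beside 7.55% and 6.25% of all tested genes. DESeq2 called 11 and 6 higher and the paired fit 15 and 9, beside 14.7% and 12.5% of all genes in the latter, and 0 were called lower in these 3 fits, with 0 at an unadjusted p under 0.05 in edgeR. The counts of DESeq2 stand without such a share. The median log2FC of the list was 0.79 and 0.62, against -0.03 and 0.03 over the 20 cytosolic synthetases. DDIT4, an inhibitor of mTORC1 (log2FC 3.66 and 3.56), and PPP1R15A, which directs a phosphatase to eIF2 (3.55 and 2.63), were called in each line. CTH, of cysteine synthesis, rose by 1.42 and 0.90 on the log2 scale, ALDH1L2, of mitochondrial folate metabolism, by 1.38 and 1.16, and DDIT3, the stress factor CHOP, by 3.06 in MM1R (adjusted p = 0.013). In MM1S, the call of CTH was lost without any untreated MM1S culture, MM1S with WA of passage 16 or 23, or untreated MM1R of passage 6 (adjusted p up to 0.12), and that of PPP1R15A without any untreated MM1S culture or MM1S with WA of passage 23 (up to 0.0892). The call of ALDH1L2 in MM1S held only without untreated MM1S of passage 22, MM1S with WA of passage 16 or untreated MM1R of passage 7 (up to 0.138 in the others), and in MM1R it was lost without untreated MM1R of passage 7 (0.0736). The call of DDIT3 in MM1R was lost without untreated MM1R of passage 6 or 7 or MM1R with WA of passage 7 (0.0573 to 0.0752). Without the last of these the estimate of DDIT3 was 1.61, and that of PPP1R15A was 2.14 with its call kept. DDIT3 in MM1S (2.24, adjusted p = 0.057) passed in DESeq2, in the paired fit (adjusted p = 0.022) and without MM1R with WA of passage 6 or 7 or MM1S with WA of passage 22.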

How the data were processed

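RNA was sequenced from 12 cultures by the study, and the labels gave the line, treatment and passage of each. The authors deposited raw counts of reads per gene without normalization, made with STAR 2.7.3a after quality control with FastQC 0.11.5 on hg19, per the submitters' processing notes. The annotation, the strand setting and the treatment of reads shared by several entries are not given in the sources used here. A further table of counts divided by DESeq2 size factors was deposited and not used. Replicates were cultures of different passage, and each of the 12 pairs within groups had a chi-square per degree of freedom of 8.16 to 46.5, where sampling noise alone gives about 1, so that none was a library deposited more than once. Depth was 17625110 to 19368343 counts per culture, and limits of 3 reads cover counting error only.

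The members and the further gene lists were chosen with earlier results of these data known. Counts were tested in R 4.3.3 with edgeR 4.0.16 (filterByExpr with a minimum count of 10, TMM, quasi-likelihood F-test over the 12 libraries together, Benjamini-Hochberg adjustment over all 14085 tested genes). WA was called at an adjusted p of 0.05, and differences between lines at 0.01 with a log2 fold change of 1, the limits of the study. CPM within passage pairs used a pseudocount of 0.5. Members are named except 1, which enters the counts and sums but is not reported here, and values per culture are given for the 6 cytosolic and 3 mitochondrial members with the largest mean absolute log2 fold change, and of other lists up to 5 genes past the threshold with the smallest p. PARS2 in a plot, DARS, ATF4, CHAC1, GATB, the marker genes, and list genes called in the paired fit alone were added after their values were seen. The deviations from group means of the untreated and WA cultures of the same passage correlated at 0.427, 0.221 and 0.254 for passages 4, 6 and 7 of MM1R and at 0.744, 0.262 and 0.491 for passages 16, 22 and 23 of MM1S, all above 0.1, so that passage numbers, which the labels give, were treated as pairing the cultures. For MM1S of passage 22, the correlation with another passage was higher (0.347).

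The test was checked on simulated counts in which 198, 197 and 199 genes differed by 1 on the log2 scale, and edgeR recovered 65.2% for WA in MM1R, 68% for WA in MM1S and 62.8% between the lines among 13850, 13831 and 13847 genes, with 5.84%, 4.96% and 5.3% of its calls false. The simulated cultures were drawn independently, without correlation within passages. Differences below 1, the size of most changes reported here, were not simulated. Alternatives were DESeq2 1.42.0, its size factors, other filters, the 6 libraries compared alone, passage as block, other thresholds, and each library left out. Leaving out a passage pair for the summed reads was chosen after seeing the data. Levels between genes used canonical transcripts of GENCODE v44lift37 (GRCh37), to which 37 of 37 members and 98.4% of reads matched. Promoter sequences are those of RefSeq on GRCh38.p14, held for 16 cytosolic and 14 mitochondrial members and not used here for the others, such as YARS, DARS, LARS, VARS, VARS2 and AARS2.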

Additional observations from a re-analysis of the deposited data

How the results depend on the processing

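The medians of both compartments moved by less than the spread between passage pairs under the 18 alternatives to the fit, but a minimum of 10 reads in each library put the cytosolic median in MM1R at 0.01. With 1 library left out, the cytosolic median ranged from -0.070 to 0.046 in MM1R and from -0.089 to 0.15 in MM1S. The mitochondrial median stayed below 0, from -0.36 to -0.21 in MM1R and from -0.31 to -0.13 in MM1S. Members called higher or lower varied. For MM1R, the cytosolic count of 0 higher became 1 with no filter on low counts, with at least 10 reads in every library, with DESeq2 and in the 6 libraries alone, and the 2 lower became 1 with at least 10 reads, in the 6 libraries alone and at an adjusted p of 0.01. For MM1S, the 1 cytosolic member called lower became 0 with no filter and at an adjusted p of 0.01 and 2 with DESeq2, 0 mitochondrial members higher became 1 with at least 10 reads and with DESeq2, and 3 lower became 1 at an adjusted p of 0.01. With passage as replicate block, the cytosolic counts were 3 higher and 4 lower in MM1R and 1 higher and 4 lower in MM1S, and the mitochondrial counts 6 lower in MM1R and 1 higher and 5 lower in MM1S. With 1 library left out, cytosolic counts ranged from 0 to 1 higher and 1 to 3 lower in MM1R and from 0 to 1 lower in MM1S, and mitochondrial counts from 2 to 4 lower in MM1R and from 0 to 1 higher and 1 to 4 lower in MM1S. Between the lines, 1 cytosolic member (DARS) was lower, untreated and under WA, with no limit on the fold change. The log2 change of the summed ratio was 0.0565 in MM1R and -0.0617 in MM1S with medians in place of sums, which give abundant enzymes more weight. With the coding length, the ratio of medians of TPM was 3.58 in MM1S and 3.57 in MM1R. YARS was then highest in place of GARS, and PARS2 was the lowest mitochondrial enzyme in place of WARS2. Estimates near 0 changed sign, none past a threshold: DARS in MM1S to -0.0028 with DESeq2 and its size factors and -0.0071 with no filter, DARS in MM1R to 0.021 and IARS in MM1R to 0.0038 with at least 10 reads, and SARS in MM1R to -0.0085 with no filter and -0.0029 in the 6 libraries alone. With 1 library left out the ranges that crossed 0 were, in MM1R, DARS -0.067 to 0.019, HARS2 -0.10 to 0.024, IARS -0.11 to 0.092, MARS -0.15 to 0.014, RARS2 -0.0053 to 0.15, SARS -0.046 to 0.072, in MM1S AARS -0.039 to 0.37, DARS -0.040 to 0.078, FARSB -0.16 to 0.031, HARS2 -0.26 to 0.048, IARS -0.12 to 0.30, MARS -0.21 to 0.15, NARS -0.064 to 0.21, RARS -0.23 to 0.0041, SARS -0.041 to 0.25, TARS -0.13 to 0.28, and for the interaction of DARS -0.097 to 0.020. The cause of these moves was not tested. For the genes named with values for WA, the block changed no call beyond those printed beside them. Depth limits VARS (34 to 88 reads), and in simulated counts a part of the genes that differed by 1 on the log2 scale was missed.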

Other observations

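Untreated MM1S of passage 22 stood apart in levels of several cytosolic synthetases and of ATF4-related genes, named after their values were seen. It had 423 CPM of GARS, 22.6 CPM of CARS, 449 CPM of AARS and 381 CPM of YARS, the highest of the untreated cultures for each. It also had 856 CPM of ATF4, against 435 to 544 CPM in the other untreated cultures, and 58.0 CPM of CHAC1, against 4.66 to 15.9 CPM. In that passage GARS, CARS, AARS and YARS were lower with WA, at 398, 21.8, 401 and 342 CPM, and ATF4 and CHAC1 likewise, at 672 and 26.4 CPM. In the other 5 passage pairs all 6 genes were higher with WA.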
